A study of Mus musculus with 93 samples.

Results

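The subject is a set of 10 genes of surface epithelia in the mouse posterior eyecup, namely Ovol1, Kprp, Klk10, Klk13, Smpdl3b, Duox2, Duoxa2, Muc4, Muc5b and Reg3g. They are 10 of the 30235 genes in the deposited count table, and all 10 were among the 18003 eyecup genes that passed the filter on low counts. The genes were picked by symbol, with the genotype results of the same eyecup libraries already known, so their genotype values, with the counts of genes past the threshold, describe the choice and support nothing. The study made mRNA libraries of female mice from 2 tissues, the neural retina and the posterior eyecup, which here means the eye left after the lens and the retina are taken out. The 45 eyecup libraries form 6 groups. Efemp1ki/ki mice, which carry a knock-in allele of Efemp1 on both chromosomes, gave 8 libraries at 3 months, 8 at 9 months and 7 at 17 months. Wild-type (Wt) mice gave 6 libraries at 3 months, 8 at 9 months and 8 at 17 months. None of the animals was treated, and their strain is not named. Efemp1 encodes fibulin-3, an extracellular matrix protein whose mutation causes Doyne honeycomb retinal dystrophy, a heritable disorder of the macula for which the knock-in is a mouse model. Counts per gene do not show the allele, so genotype rests on the labels. Whether libraries of a group are separate mice is not stated in the labels, so p-values measure the spread between libraries.

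Stratified and mucosal epithelia protect a body surface in several ways. Their outer cells differentiate under transcription factors such as OVOL1 and are shed by kallikrein proteases. Membrane-bound and gel-forming mucins hold fluid and trap particles. Dual oxidases release hydrogen peroxide at the cell surface, and secreted lectins such as REG3G act on bacteria. On the eye these tasks belong to the cornea and the conjunctiva, which carries the mucus-secreting goblet cells.

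The posterior eyecup libraries held that epithelium. Krt12, the keratin of corneal epithelium, had 6813 to 25375 CPM (counts scaled by library size) over the 45 libraries, and Krt5 5256 to 14720 CPM. Of 7 goblet cell markers listed, 5 were in the table, and of these Foxa3 was at 0 in 6 libraries and the others in none. Muc5ac, the gel-forming mucin of goblet cells, had 0.289 to 426 CPM. Of 9 markers of cornified epidermis and hair follicle, Krt2 and Krt35 were at 0 in 34 libraries each, Krt71 in 29, Flg in 15 and Krt25 in 3. The other 4 were at 0 in none, with medians of 4.73 CPM for Krt1, 5.09 for Krt10, 6.40 for Ivl and 0.245 for Lor. Eyecup depth was 14236127 to 35297627 counts per library, with a median of 19982911. In such bulk samples fewer cells of a type and less RNA per cell cannot be told apart. One library stood apart from its group in its overall profile, Efemp1ki/ki library 7 at 9 months, and results that rest on it are given with and without it.

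Per length, in the authors' deposited TPM (a length-scaled level in which protein-coding genes have the same total in every library), the 10 genes spanned a wide range of levels over the 45 eyecup libraries. Muc4, a membrane mucin, had a median of 433 TPM. Next came Ovol1 at a median of 17.6 TPM, Klk10 at 15.6 and Smpdl3b at 7.21. Duoxa2, Kprp and Duox2 had medians of 2.56, 1.90 and 1.44 TPM, with overlapping ranges. Reg3g, Klk13 and Muc5b were lowest at 0.754, 0.504 and 0.334 TPM, and Reg3g reached 427 TPM in its highest library. In the 48 neural retina libraries, 8 of the 10 genes had a median of at most 0.347 CPM, and Muc4 and Muc5b had medians of 8.29 and 0.625 CPM.

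**Figure D1:**
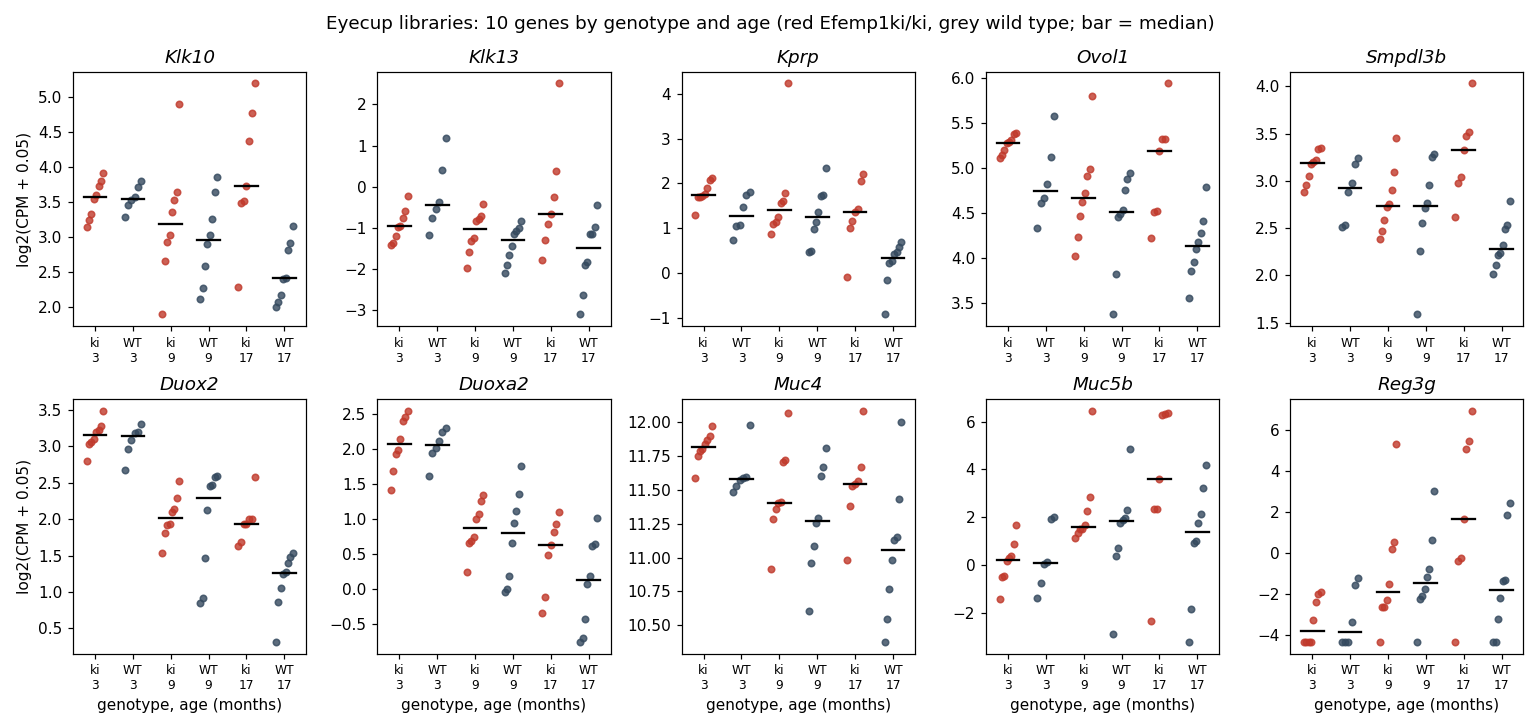
Level of each of the 10 genes in every eyecup library, as log2(CPM + 0.05), by genotype and age in months; each point is a library, the bar is the group median, red is Efemp1ki/ki and grey wild type. Duox2 and Duoxa2 are highest at 3 months in both genotypes, and at 17 months the Duox2 values of the 7 Efemp1ki/ki libraries, 3.05 to 5.92 CPM, lie above those of the 8 wild-type libraries, 1.19 to 2.86 CPM.

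The upstream sequences of 4 of the genes are shown because their levels carry the patterns described below: the divergent pair Duox2 and Duoxa2, which fell together with age, Klk10, whose highest 17-month values were in the libraries high in Reg3g, and Reg3g, which ran from 0 to 122 CPM. Each run is the 250 bases before the RefSeq transcription start, 5′ to 3′ on the gene's own strand, from the RefSeq annotation of GRCm38.p6; RefSeq windows were matched for 7 of the 10 genes. Capitals mark matches to 5 motifs, searched on both strands with overlaps allowed. These were the TATA box (TATAAA), AP-1 (TGANTCA), STAT (TTCNNNGAA), OVO (CCGTTA) and the kappaB site.
Duox2 (chr2:122298228-122298477, minus strand): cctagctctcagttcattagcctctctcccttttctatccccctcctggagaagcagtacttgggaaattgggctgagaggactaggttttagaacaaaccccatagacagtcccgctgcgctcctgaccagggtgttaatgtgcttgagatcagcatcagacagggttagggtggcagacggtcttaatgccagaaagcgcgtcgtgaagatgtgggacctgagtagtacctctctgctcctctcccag
Duoxa2 (chr2:122298650-122298899, plus strand): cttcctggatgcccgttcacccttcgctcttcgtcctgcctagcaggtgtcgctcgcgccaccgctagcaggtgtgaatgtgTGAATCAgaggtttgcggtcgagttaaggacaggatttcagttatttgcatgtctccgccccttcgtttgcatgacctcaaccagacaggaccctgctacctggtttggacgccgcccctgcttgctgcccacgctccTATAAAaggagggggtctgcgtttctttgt
Klk10 (chr7:43780804-43781053, plus strand): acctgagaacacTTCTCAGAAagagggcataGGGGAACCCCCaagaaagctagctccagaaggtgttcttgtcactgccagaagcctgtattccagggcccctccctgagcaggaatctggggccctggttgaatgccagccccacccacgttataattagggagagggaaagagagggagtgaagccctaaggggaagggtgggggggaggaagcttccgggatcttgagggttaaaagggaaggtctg
Reg3g (chr6:78468875-78469124, minus strand): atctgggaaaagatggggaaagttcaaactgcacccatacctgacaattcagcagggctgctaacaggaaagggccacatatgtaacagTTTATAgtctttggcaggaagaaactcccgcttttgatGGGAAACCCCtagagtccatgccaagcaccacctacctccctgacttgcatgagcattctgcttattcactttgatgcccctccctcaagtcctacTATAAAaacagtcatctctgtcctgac

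The start sites of Duox2 and Duoxa2 lie 673 bases apart, head to head, with 172 bases between the windows. The Duoxa2 window held a TATA box 30 bases before the start and an AP-1 match 168 bases before it, and the Duox2 window held none of the 5 motifs. The Klk10 window held a STAT match and a run of 2 overlapping kappaB matches, and the Reg3g window a TATA box 27 bases before the start, another on the opposite strand 161 bases before it and a kappaB match. Of the windows not printed, that of Smpdl3b held a kappaB match, that of Muc4 a TATA box and that of Klk13 none. Over all 32817 RefSeq windows of this length, 12.4% held a TATA box, 6.75% an AP-1, 7.01% a STAT, 2.17% an OVO and 7.25% a kappaB match. These matches are letters in a window and were not tested as binding sites.

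Duox2 and Duoxa2 fell with age in both genotypes. DUOX2 is the oxidase that makes hydrogen peroxide at the surface of mucosal epithelia, and DUOXA2 is the maturation factor it needs to leave the endoplasmic reticulum. At 3 months Duox2 had 6.94, 8.86 and 11.2 CPM (lowest, median, highest) in Efemp1ki/ki eyecups and 6.33, 8.77 and 9.84 CPM in wild-type eyecups. At 9 months it had 2.84, 4.00 and 5.73 CPM in Efemp1ki/ki eyecups and 1.75, 4.88 and 5.99 CPM in wild-type eyecups. At 17 months it had 3.05, 3.78 and 5.92 CPM in Efemp1ki/ki eyecups and 1.19, 2.35 and 2.86 CPM in wild-type eyecups. Every library at 9 or 17 months was below every 3-month library of either genotype.

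Duoxa2 followed the same order. At 3 months it had 2.61, 4.13 and 5.76 CPM (lowest, median, highest) in Efemp1ki/ki eyecups and 2.99, 4.10 and 4.83 CPM in wild-type eyecups. At 9 months the values were 1.13, 1.79 and 2.48 CPM in Efemp1ki/ki eyecups and 0.922, 1.70 and 3.32 CPM in wild-type eyecups. At 17 months they were 0.737, 1.49 and 2.08 CPM in Efemp1ki/ki eyecups and 0.542, 1.05 and 1.97 CPM in wild-type eyecups. The 17-month libraries did not overlap the 3-month libraries in either genotype, whereas the highest 9-month wild-type library lay inside the 3-month range. In Efemp1ki/ki, Duox2 and Duoxa2 were the 2 of the 10 genes whose 17-month libraries all lay below the 3-month ones, as for 0.233% of all genes. In wild type they were joined by Klk10 and Kprp, 4 of 10, against 0.783% of all genes. Duoxa2 shares 682 of its 1592 exonic bases with Duoxa1 on the other strand, and the strand setting of the counting is not given, so its level is uncertain to that extent.

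Age was tested with edgeR's quasi-likelihood test over all 18003 genes, as the mean of both genotypes. This contrast was added after the data had been seen. It averages the genotypes rather than comparing them, but it uses the same libraries as the genotype difference that chose the genes and is not independent of it where the spread differs between genotypes, as for Muc5b and Reg3g. At 17 against 3 months Duox2 fell by 1.54 on the log2 scale (standard error [SE] 0.15, adjusted p = 4.92e-10), with 15 and 14 libraries, and Duoxa2 fell by 1.72 (SE 0.19, adjusted p = 1.04e-08). At 9 against 3 months Duox2 fell by 1.06 (SE 0.14, adjusted p = 4.9e-06), and Duoxa2 fell by 1.20 (SE 0.18, adjusted p = 3.29e-05). Of the 10 genes, 5 passed at 17 months, 2 higher and 3 lower, where 20.7% of all tested genes passed, 11.6% higher and 9.13% lower. At 9 months 4 of the 10 passed, 2 in each direction, against 12.7% of all genes, 5.49% higher and 7.22% lower. With an offset for the GC content of transcripts, 1858 of 5043 genes that passed at 17 months were higher, against 2080 of 3724 without it, and 241 of 783 at 9 months, against 988 of 2288.

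Within single genotypes, at 17 against 3 months, Duox2 fell by 1.18 in Efemp1ki/ki eyecups (adjusted p = 0.000246) and by 1.91 in wild-type eyecups (adjusted p = 2.49e-07), on the log2 scale and by edgeR. Duoxa2 fell by 1.57 in Efemp1ki/ki eyecups (adjusted p = 0.000127) and by 1.86 in wild-type eyecups (adjusted p = 1.91e-05). Of the 10 genes, 4 passed in Efemp1ki/ki, 2 in each direction, where 3.57% of all genes passed, 2.61% higher and 0.967% lower. In wild type 3 of the 10 passed, all lower, where 5.88% of all genes passed, 2.73% higher and 3.16% lower. The wild-type count was 7 without wild-type library 6 at 17 months. Both contrasts use the libraries of the genotype comparisons at these ages and are given side by side for that reason. The change of the genotype difference between 17 and 3 months was 0.73 for Duox2 (SE 0.30) and 0.28 for Duoxa2 (SE 0.38) on the log2 scale, given as a description.

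Surface epithelium markers also moved with age. Of 16 markers of cornea and conjunctiva, 9 were lower and none higher at 17 against 3 months in the mean of both genotypes, with a median log2 difference of -0.42, against 0.05 over all tested genes. Their summed level was 28532 to 60862 CPM in Efemp1ki/ki eyecups, against 27305 to 49115 CPM in wild-type eyecups at 17 months. The 3-month sums were 47411 to 62207 CPM in Efemp1ki/ki eyecups, against 42073 to 64442 CPM in wild-type eyecups. In 1 alternative the mean log2 level of these 16 markers was a covariate in the edgeR fit. There the fall was 1.30 for Duox2 (adjusted p = 1.07e-07) and 1.49 for Duoxa2 (adjusted p = 4.14e-06), on the log2 scale. The part of surface epithelium content in these falls was not tested.

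The neighbouring dual oxidase pair did not pass the test. Duox1, which encodes the other dual oxidase, had 15.3 ± 5.45 CPM in Efemp1ki/ki eyecups, against 12.1 ± 5.30 CPM in wild-type eyecups at 17 months (SD, n = 7 and 8). The 3-month levels were 17.0 ± 2.58 CPM in Efemp1ki/ki eyecups, against 14.5 ± 3.27 CPM in wild-type eyecups (SD, n = 8 and 6). Its log2 difference at 17 against 3 months was -0.21 (SE 0.18, adjusted p = 0.412, edgeR) and that of Duoxa1, its maturation factor, -0.22 (SE 0.15, adjusted p = 0.288). Of 7 tested genes of the NADPH oxidase and peroxidase list, 2 rose with age, against 11.6% of all genes. Cybb, the catalytic subunit of the phagocyte oxidase, rose by 1.58 (adjusted p = 1.03e-12, edgeR) and its partner Cyba by 0.68 (adjusted p = 2.78e-05). Phagocyte markers moved too, with 3 of 5 tested neutrophil and macrophage markers higher at 17 months and 1 lower. Their mean log2 CPM, over the 5 tested, was 3.29 ± 0.28 in Efemp1ki/ki and 3.06 ± 0.23 in wild-type eyecups at 17 months (SD, n = 7 and 8). At 3 months it was 2.90 ± 0.15 in Efemp1ki/ki and 2.85 ± 0.29 in wild-type eyecups (SD, n = 8 and 6). The summed level of all 6 such markers counted had lower medians at 17 months than at 3 months. Most of each sum was Itgam, which had a median of 202 CPM over the 45 libraries, so the sums mainly follow that gene. At 17 months it was 193 to 343 CPM (median 262) in Efemp1ki/ki eyecups, against 143 to 302 CPM (median 207) in wild-type eyecups. The 3-month sums were 232 to 315 CPM (median 280) in Efemp1ki/ki eyecups, against 225 to 297 CPM (median 240) in wild-type eyecups. The part of phagocytes in the Cybb result was not tested.

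**Figure D2:**
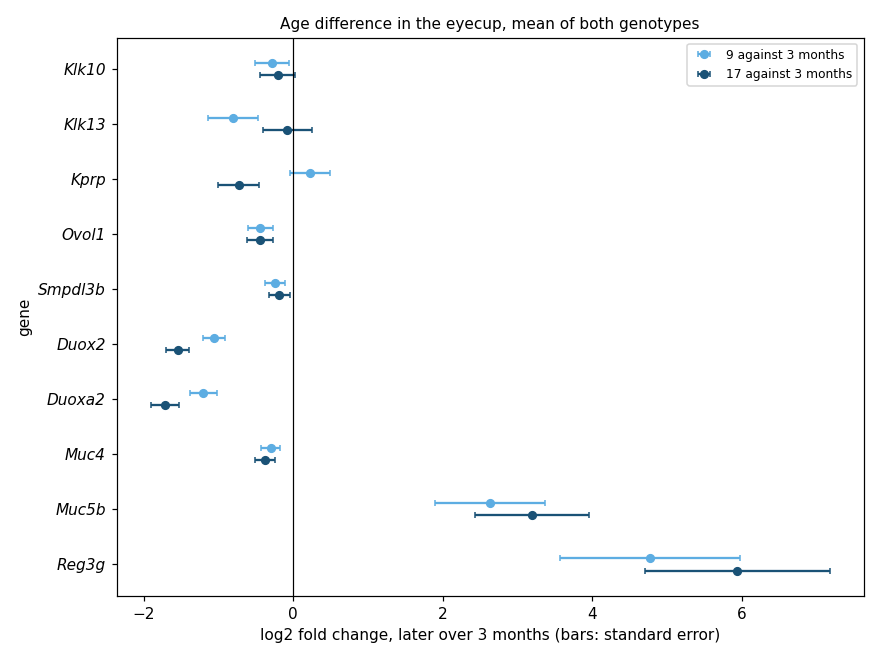
Log2 fold change with age for each of the 10 genes, mean of both genotypes, at 9 against 3 months (light blue) and 17 against 3 months (dark blue); bars are standard errors of the edgeR fit over 45 libraries. Duox2 and Duoxa2 lie left of 0 at both ages (-1.54 and -1.72 at 17 months) and Muc5b and Reg3g right of it (3.19 and 5.94 at 17 months).

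Library by library, Duox2 and Duoxa2 moved together. With the group means removed, Pearson's r over 45 libraries was 0.68 and Spearman's rho 0.67 (permutation within groups, p = 1e-05 for each, the smallest that 100000 permutations can give, adjusted p = 2.17e-05 over 13 relations). Without the 2 libraries farthest from the median of Duox2, r was 0.63. With the mean log2 level of the 16 surface markers, r was 0.43 for Duox2 and 0.28 for Duoxa2. The labels name no batch, date or flow cell, so none could be separated.

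Muc5b and Reg3g were very uneven between libraries. They rose with age in Efemp1ki/ki eyecups and in the mean of both genotypes but did not pass in wild type alone. The difference between genotypes in this change did not pass either. MUC5B is a gel-forming mucin of secretory epithelia, and REG3G is a secreted C-type lectin that kills Gram-positive bacteria in the gut. At 3 months Muc5b had 0.325, 1.12 and 3.17 CPM (lowest, median, highest) in Efemp1ki/ki eyecups and 0.336, 1.00 and 3.96 CPM in wild-type eyecups. At 9 months it had 2.16, 2.98 and 87.6 CPM in Efemp1ki/ki eyecups and 0.0852, 3.50 and 29.3 CPM in wild-type eyecups. At 17 months the values were 0.145, 12.0 and 82.7 CPM in Efemp1ki/ki eyecups and 0.0562, 2.61 and 18.1 CPM in wild-type eyecups. The ages overlapped in both genotypes, and the lowest library at 9 and 17 months in wild type, and at 17 months in Efemp1ki/ki, lay below all 3-month libraries.

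Reg3g was close to 0 at 3 months, with 0 to 4 counts per library in Efemp1ki/ki and 0 to 8 counts in wild-type eyecups. It was at 0 in 12 eyecup libraries, which allows up to 0.0985 to 0.241 CPM at 3 counts per library, counting error only. At 9 months it had 0, 0.229 and 39.6 CPM (lowest, median, highest) in Efemp1ki/ki eyecups and 0, 0.319 and 8.02 CPM in wild-type eyecups. At 17 months it had 0, 3.09 and 122 CPM in Efemp1ki/ki eyecups and 0, 0.255 and 5.48 CPM in wild-type eyecups. In Efemp1ki/ki eyecups at 17 months, library 2 had 122, library 5 had 44.6, library 4 had 34.1 and library 1 had 3.09 CPM, and the other 3 were below 1 CPM. So 3 of the 7 Efemp1ki/ki libraries lay above every wild-type library of that age, and the other 4 lay within the wild-type range.

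The same 3 libraries were high in Muc5b, with 78.7 CPM in library 2, 82.7 in library 4 and 79.0 in library 5, against 0.145 to 12.0 CPM in the other 4. Both genes were also high in Efemp1ki/ki library 7 at 9 months, with 87.6 CPM of Muc5b and 39.6 CPM of Reg3g, and in wild-type library 3 at 9 months, with 29.3 and 8.02 CPM. With group means removed, the pair had r = 0.84 and rho = 0.85 over 45 libraries (permutation within groups, p = 1e-05 each, the smallest possible, adjusted p = 2.17e-05 over 13 relations). Without the 2 libraries farthest from the median of Muc5b, r was 0.86. This pair was added to the relations after the data had been seen.

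**Figure D3:**
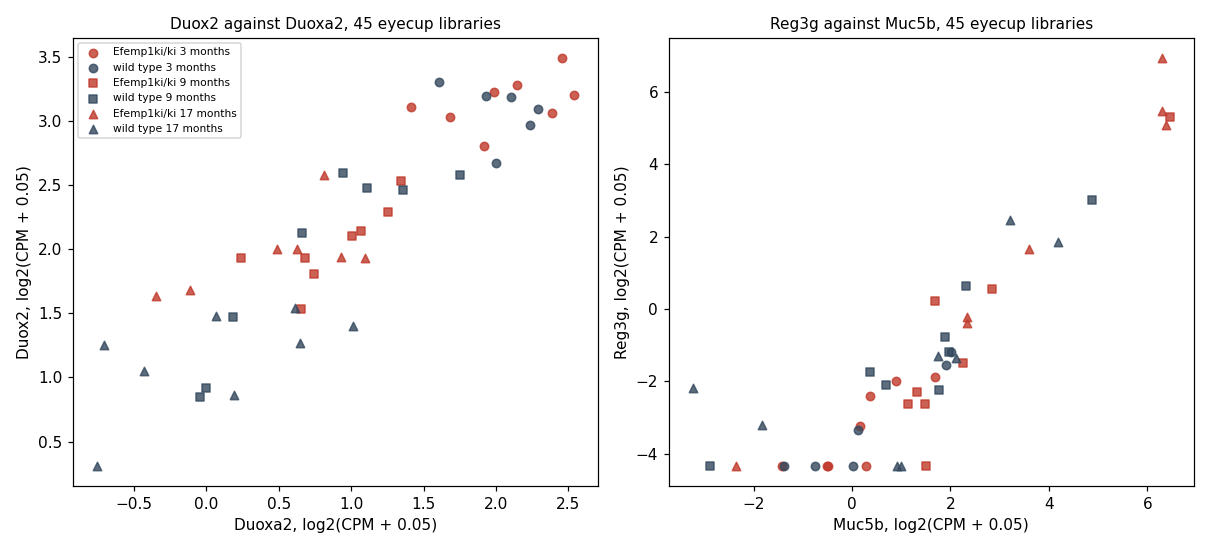
Level of Duox2 against Duoxa2 (left) and of Reg3g against Muc5b (right) in each of 45 eyecup libraries, as log2(CPM + 0.05); red is Efemp1ki/ki, grey wild type, with circles for 3, squares for 9 and triangles for 17 months. The 4 libraries at the upper right of the Reg3g panel are Efemp1ki/ki libraries 2, 4 and 5 at 17 months and library 7 at 9 months, with 34.1 to 122 CPM of Reg3g.

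In the mean of both genotypes, at 17 against 3 months, Muc5b rose by 3.19 (SE 0.76, adjusted p = 0.0031, edgeR) and Reg3g by 5.94 (SE 1.23, adjusted p = 0.000791) on the log2 scale. The high Efemp1ki/ki libraries that set the genotype difference also enter this age difference. At 17 months Reg3g averaged 29.4 ± 44.8 CPM in Efemp1ki/ki eyecups, against 1.24 ± 2.08 CPM in wild-type eyecups, and Muc5b 37.5 ± 40.0 CPM in Efemp1ki/ki eyecups, against 4.86 ± 6.07 CPM in wild-type eyecups (SD, n = 7 and 8). The size for Reg3g rests on the few counts at 3 months and is not a bound. How reads shared within the Reg3 family were counted is not given, so the Reg3g level is uncertain to that extent. At 9 against 3 months Muc5b rose by 2.63 (adjusted p = 0.0175) and Reg3g by 4.77 (adjusted p = 0.00956), and without Efemp1ki/ki library 7 the values were 1.64 (adjusted p = 0.0684) and 2.97 (adjusted p = 0.0554). Within Efemp1ki/ki alone, at 17 against 3 months, Muc5b rose by 4.93 (adjusted p = 0.00409) and Reg3g by 8.61 (adjusted p = 0.00128). Within wild type the differences of 1.46 for Muc5b (adjusted p = 0.385) and 3.26 for Reg3g (adjusted p = 0.244) did not pass. The change of the genotype difference between 17 and 3 months was 3.47 for Muc5b (SE 1.42) and 5.35 for Reg3g (SE 2.86). That change passed for 0 of 18003 genes, so the age changes are not shown to differ between genotypes.

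Muc5ac, on the goblet cell list, varied with both genes. Outside the set, the genes most like Muc5b over the 45 libraries, after removal of group means, were Muc5ac (r = 0.95) and Gp2 (r = 0.94). Those most like Reg3g outside the set were Muc5ac (r = 0.79) and Pigr (r = 0.79), below Muc5b itself (r = 0.84). Pigr encodes the receptor that carries antibodies across epithelia and is a gene of the gland list below. Muc5ac had 289, 171 and 416 CPM in Efemp1ki/ki libraries 2, 4 and 5 at 17 months and 0.290 to 93.3 CPM in the other 4. In wild-type eyecups of that age it had 1.35 to 270 CPM. The summed level of the 5 goblet cell markers was 82.8 to 566 CPM in Efemp1ki/ki eyecups, against 42.1 to 499.7 CPM in wild-type eyecups at 17 months. The 3-month sums were 92.9 to 118 CPM in Efemp1ki/ki eyecups, against 65.1 to 168 CPM in wild-type eyecups. Of 4 goblet markers tested, 1 rose at 17 against 3 months in the mean of both genotypes, Muc5ac by 2.71 (adjusted p = 0.00965, edgeR). The part of goblet cell content in the Muc5b and Reg3g results was not tested.

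Genes of the lacrimal and Harderian gland list were also uneven, and their levels do not show that gland tissue was present. The mean log2 CPM of the 5 tested lacrimal and Harderian gland markers was 4.76 ± 0.55 in Efemp1ki/ki and 3.89 ± 0.53 in wild-type eyecups at 17 months (SD, n = 7 and 8). At 3 months it was 4.53 ± 0.14 in Efemp1ki/ki and 4.38 ± 0.17 in wild-type eyecups (SD, n = 8 and 6). The summed level of all 7 markers in the table at 17 months was 1345 to 2955 CPM in Efemp1ki/ki eyecups, against 1327 to 2119 CPM in wild-type eyecups. The 3-month sums were 2027 to 3210 CPM in Efemp1ki/ki eyecups, against 1947 to 3106 CPM in wild-type eyecups. Most of each sum was Aqp5, which had 957 to 3103 CPM over the 45 libraries, with a median of 1971 CPM. The sums therefore mainly follow that gene and are not a measure of gland tissue. The highest mean log2 value at 17 months, 5.63, was in Efemp1ki/ki library 2. Of the 2 that were not tested, Scgb1b27 was at 0 in 41 libraries and Lcn11 in 37. The part of gland tissue in the Reg3g levels was not tested.

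Other mucins and antimicrobial genes were compared over the same ages. Of 8 tested mucins outside the 10 genes, 2 rose at 17 against 3 months in the mean of both genotypes and none fell: Muc5ac, above, and Muc16, a membrane mucin of cornea and conjunctiva, by 1.74 (adjusted p = 0.0275, edgeR). Of 10 tested antimicrobial proteins, 3 rose and 1 fell. Over all genes 11.6% were higher and 9.13% lower in this contrast, and the counts of these and the other small lists are to be read against those shares. Lyz2, the lysozyme of macrophages, rose by 1.88 (adjusted p = 3.78e-13), Lcn2, which sequesters bacterial siderophores, by 1.11 (adjusted p = 0.033), and Lyz1 by 0.83 (adjusted p = 0.0163), whereas the protease inhibitor Slpi fell by 0.63 (adjusted p = 0.0224). For Lcn2 the difference was 2.40 in Efemp1ki/ki alone (adjusted p = 0.00474) and -0.18 in wild type alone (adjusted p = 0.852). Its 17-month levels were 3.71, 10.4 and 66.6 CPM (lowest, median, highest) in Efemp1ki/ki, with 66.6 in library 2 and 39.8 in library 4, and 2.08, 3.50 and 9.70 CPM in wild-type eyecups. The median log2 difference of the antimicrobial list was -0.10, against 0.05 over all tested genes.

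Muc4, the membrane mucin that covers the ocular surface, was the most abundant of the 10 genes. At 17 months it had 2022, 2984 and 4345 CPM (lowest, median, highest) in Efemp1ki/ki and 1329, 2133 and 4097 CPM in wild-type eyecups. The 3-month libraries had 3075, 3616 and 4015 CPM in Efemp1ki/ki and 2865, 3065 and 4035 CPM in wild-type eyecups. The ages overlapped in both genotypes. Its log2 difference at 17 against 3 months, -0.38 in the mean of both genotypes (SE 0.13), passed the test (adjusted p = 0.0366, edgeR). It did not pass without any one of 6 libraries: Efemp1ki/ki libraries 1 at 3 months and 1 at 17 months, and wild-type libraries 9 at 3 months and 2, 3 and 8 at 17 months (adjusted p = 0.0528 to 0.083). With the surface marker covariate the Muc4 difference was 0.0082 (adjusted p = 0.944). Muc4 shares 627 of 11757 exonic bases with Muc20 on the other strand.

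Muc4 and Smpdl3b followed the surface epithelium markers most closely of the 10 genes, Muc4 by Pearson's r and Smpdl3b by Spearman's rho. Over 45 libraries, with group means removed, its correlation with the mean of the 16 surface markers was r = 0.92 (rho = 0.85), followed by Smpdl3b (r = 0.87, rho = 0.88), Ovol1 (r = 0.78, rho = 0.79) and Klk10 (r = 0.75, rho = 0.69), each with a permutation p of 1e-05, the smallest possible. Kprp had r = 0.46 (rho = 0.50, adjusted p = 0.0105 and 0.0021). Duox2, Reg3g and Muc5b had r between 0.41 and 0.43, which passed (adjusted p = 0.0234 to 0.0261, permutation), whereas their rho did not (adjusted p = 0.0603 to 0.0982), and Duoxa2 and Klk13 did not pass by either measure (r = 0.28 and 0.22). Leaving out the 2 libraries farthest from the median of the markers gave r = 0.91 for Muc4 and 0.85 for Smpdl3b.

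**Figure D4:**
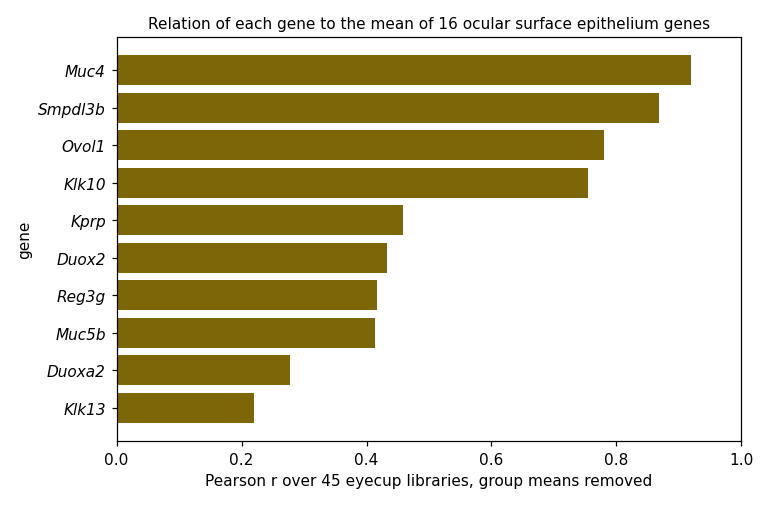
Pearson's r between the level of each gene and the mean of 16 ocular surface epithelium markers over 45 eyecup libraries, after removal of group means; each bar is a gene. The bars run from 0.92 for Muc4 to 0.22 for Klk13.

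Of the genes of epithelial differentiation, Smpdl3b, Ovol1, Klk10 and Kprp had higher medians in Efemp1ki/ki than in wild-type eyecups at 17 months. SMPDL3B is a membrane-anchored phosphodiesterase of lipid metabolism that dampens Toll-like receptor signalling. Smpdl3b had 6.10, 9.96 and 16.3 CPM (lowest, median, highest) in Efemp1ki/ki and 3.99, 4.81 and 6.86 CPM in wild-type eyecups at 17 months, a log2 difference of 0.99 (SE 0.19). At the youngest age it had 7.34, 9.09 and 10.1 CPM in Efemp1ki/ki and 5.65, 7.56 and 9.43 CPM in wild-type eyecups, a log2 difference of 0.24 (SE 0.20). Only the lowest Efemp1ki/ki library at 17 months, library 7, overlapped the wild-type range.

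Klk10 encodes a secreted kallikrein-related peptidase of differentiating epithelia. Its 17-month levels were 4.84, 13.2 and 36.6 CPM (lowest, median, highest) in Efemp1ki/ki and 3.96, 5.29 and 8.93 CPM in wild-type eyecups, a log2 difference of 1.63 (SE 0.32). Its highest values were in libraries 2, 4 and 5, with 36.6, 27.4 and 20.6 CPM, the 3 libraries with the highest Muc5b and Reg3g, and only library 7 lay within the wild-type range. The values at 3 months were 8.81, 11.9 and 15.0 CPM in Efemp1ki/ki and 9.74, 11.7 and 14.0 CPM in wild-type eyecups, a difference of -0.01 (SE 0.33). At 9 months Efemp1ki/ki library 7 had 29.9 CPM, and the other libraries of that age had 3.67 to 12.4 CPM in Efemp1ki/ki eyecups, against 4.29 to 14.5 CPM in wild-type eyecups.

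Ovol1 encodes a zinc finger repressor that drives keratinocytes out of the cell cycle. Its levels were 18.6, 36.5 and 61.4 CPM (lowest, median, highest) in Efemp1ki/ki and 11.7, 17.5 and 27.5 CPM in wild-type eyecups at 17 months, a log2 difference of 0.93 (SE 0.23), and the groups overlapped. Kprp encodes a keratinocyte proline-rich protein. The 17-month libraries had 0.893, 2.51 and 4.58 CPM in Efemp1ki/ki and 0.477, 1.22 and 1.57 CPM in wild-type eyecups, a log2 difference of 1.24 (SE 0.39), and only library 1 of Efemp1ki/ki overlapped the wild-type range. Ovol1 shares 690 of 3488 exonic bases with a pseudogene transcript on the other strand.

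Klk13, a kallikrein-related peptidase of squamous epithelia, was near the lower limit of these libraries. At 17 months it had 0.241, 0.578 and 5.65 CPM (lowest, median, highest) in Efemp1ki/ki, or 5 to 106 counts, and 0.0666, 0.315 and 0.682 CPM in wild-type eyecups, or 1 to 10 counts. Efemp1ki/ki library 2 carried the highest value and the next library had 1.26 CPM, so that 3 of the 7 libraries lay above the wild-type range. At 3 months the genotypes stood in the other order, with a median of 0.464 CPM in Efemp1ki/ki eyecups, against 0.684 CPM in wild-type eyecups. The fitted log2 difference was 2.07 (SE 0.48) at 17 months and -1.01 (SE 0.47) at 3 months. Leaving out single libraries gave 1.00 to 2.27 at 17 months, the lowest without Efemp1ki/ki library 2.

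At 17 months all 10 genes had a fitted difference above 0, with a median of 1.12 on the log2 scale, against 0.03 over all tested genes. The median of the 10 was 0.33 at 9 months and 0.07 at 3 months, against -0.02 and 0.03 over all tested genes. Without Efemp1ki/ki library 7, the 9-month difference was -1.61 for Reg3g (1.98 with it), -0.74 for Muc5b (1.24), -0.063 for Kprp (0.79) and 0.025 for Klk10 (0.42). At 17 months 2 of the 10, Smpdl3b and Klk10, were past the threshold, where 0.0611% of all genes passed, 0.0444% higher and 0.0167% lower. In the mean of the 3 ages Ovol1, Smpdl3b, Klk10 and Kprp were past it, 4 of 10, against 4.48% of all genes, 1.12% higher and 3.37% lower. None of the 10 was past it at 9 months (0.00555% of all genes, all lower) or at 3 months (3.07%, with 0.467% higher and 2.61% lower). These counts describe the choice of the genes, which used the same contrasts, and nothing is read from them. Duox2 was the 1 gene of the 10 whose libraries did not overlap between genotypes at 17 months, as for 0.0444% of all genes in that direction, with a log2 difference of 0.81 (SE 0.21).

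**Figure D5:**
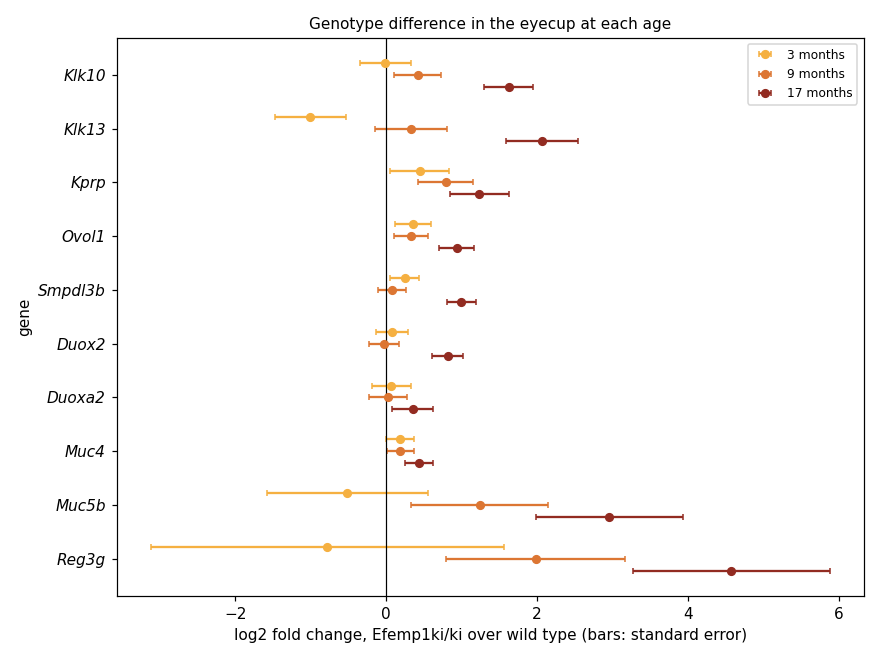
Log2 fold change between genotypes, Efemp1ki/ki over wild type, for each of the 10 genes at 3, 9 and 17 months, light to dark; bars are standard errors of the edgeR fit over 45 libraries. At 17 months the points run from 0.35 for Duoxa2 to 4.57 for Reg3g, and at 3 months Klk13 (-1.01) and Reg3g (-0.78) lie left of 0.

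The count of 2 at 17 months depended on single libraries. Klk10 was not past the threshold without Efemp1ki/ki library 2, 4 or 5 or wild-type library 1, 2, 3, 4 or 8, and Smpdl3b was not without Efemp1ki/ki library 2, 5 or 6 or wild-type library 1, 2, 4, 5 or 8. None of the 16 surface markers passed between genotypes at that age. Their mean log2 CPM was 9.73 ± 0.42 in Efemp1ki/ki and 9.37 ± 0.43 in wild-type eyecups (SD, n = 7 and 8). With that mean as a covariate, the difference was 0.62 for Smpdl3b and 1.02 for Klk10 on the log2 scale. The slope of log2 level on the GC content of transcripts also differed, at 0.0955 ± 0.126 per 10 percentage points in Efemp1ki/ki and -0.0458 ± 0.0593 in wild-type eyecups at 17 months, and with a GC offset the differences were 0.89 and 1.53.

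Markers of other eyecup tissues moved as well. Of 6 skeletal muscle markers, 4 were higher at 17 against 3 months in the mean of both genotypes, with a median log2 difference of 0.96. Their summed level was 1751 to 24958 CPM in Efemp1ki/ki eyecups, against 1721 to 20836 CPM in wild-type eyecups at 17 months, and 2830 to 12120 CPM in Efemp1ki/ki eyecups, against 2658 to 7938 CPM in wild-type eyecups at 3 months. Of 8 pigment epithelium markers, 1 was lower with age in that mean, and 2 were lower in Efemp1ki/ki than in wild-type eyecups in the mean of the 3 ages. None of the 6 rod markers passed. At 17 months the summed level of 6 rod markers was 208 to 16019 CPM in Efemp1ki/ki eyecups, against 518 to 19088 CPM in wild-type eyecups, and the part of these tissues in the age and genotype differences was not tested.

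For each of the remaining genes, the most similar genes outside the set across libraries were found with group means removed. Klk10 was closest to Klk11, a neighbouring kallikrein (r = 0.90), and Igsf3 (r = 0.86). Ovol1 was closest to the receptor kinase gene Epha2 (r = 0.91) and the growth factor gene Hbegf (r = 0.89), Smpdl3b to Ankk1 (r = 0.92) and Prkch (r = 0.92), and Muc4 to Cdcp1 (r = 0.96) and Fat1 (r = 0.95). Kprp was closest to S100a7a (r = 0.72) and Gm44275 (r = 0.71), Duox2 to Lpar2 (r = 0.63) and Efna1 (r = 0.62), Duoxa2 to Ppil2 (r = 0.65) and Lypd6b (r = 0.62), and Klk13 to Klf10 (r = 0.61) and Paqr7 (r = 0.58). These are the highest correlations for each gene with the genes of the set left out, and are given as a description. Within the set, Duox2 and Duoxa2 had r = 0.68 with each other, above their values with Lpar2 and Ppil2.

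Other genes of the differentiation programme fell with age. Of 11 tested epithelial differentiation factors, 8 were lower at 17 against 3 months in the mean of both genotypes and none higher, with a median log2 difference of -0.35. None of the 11 passed between genotypes at any age, with a median log2 difference of 0.25 at 17 months. Those that fell were Ovol2, the paralogue of Ovol1, which fell by 0.58 (adjusted p = 0.00889, edgeR), Zfp750, Klf4, Klf5, Prdm1, Grhl1, Grhl2 and Grhl3, which fell by 0.32 to 0.43. With the surface marker covariate none of the 8 passed, and Klf5, Grhl1 and Grhl2 had differences of 0.034, 0.053 and 0.000278. Of 7 tested cornified envelope genes, Cnfn fell by 1.58 (adjusted p = 0.0193) and Ivl, which encodes involucrin, by 0.50 (adjusted p = 0.0124). Over the 9 alternatives these differences ran from -1.69 to -0.44 for Cnfn and from -0.54 to -0.073 for Ivl. Each passed in 8 of the 9.

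Of 4 tested kallikreins outside the 10 genes, Klk11 fell by 0.55 (adjusted p = 0.0123, edgeR) and Klk8 by 0.53 (adjusted p = 0.0291), while Klk6 rose by 0.41 (adjusted p = 0.0256), on the log2 scale at 17 against 3 months. Of 5 tested kallikrein inhibitors, Spint1 fell by 0.43 (adjusted p = 0.00761) and Spint2 by 0.33 (adjusted p = 0.0276). Over the 9 alternatives the differences ran from -0.61 to -0.093 for Klk11 and from -0.56 to -0.21 for Klk8. They ran from -0.48 to -0.060 for Spint1 and from -0.39 to -0.000956 for Spint2. Each of these 4 falls passed in 7 or 8 of the 9, whereas the rise of Klk6 passed in all 9. None of the 7 tested sphingomyelin phosphodiesterases and ceramidases passed in either direction. In wild-type eyecups alone Klk13 fell by 1.61 (adjusted p = 0.0439), with 2.21 CPM in library 5 at 3 months and a fall of 1.17 without it (adjusted p = 0.142). It did not pass either without any one of 10 other libraries (adjusted p = 0.0543 or more).

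Interleukin-22 induces Reg3g in the mouse gut, but Il22 itself was not among the 7 tested of the 16 genes listed here. A part of interleukin-22 in the Reg3g levels was therefore not tested. Of 7 tested genes of the IL-17, IL-22 and IL-1 axis, Il1b rose by 0.73 with age (adjusted p = 0.0242, edgeR; 1.35 in Efemp1ki/ki alone, 0.11 in wild type alone), and Nfkbiz and Il17rc fell by 0.46 and 0.33 (adjusted p = 0.0255 and 0.027), on the log2 scale at 17 against 3 months. Between genotypes at 17 months 1 of the 7 passed, where 0.0611% of all genes passed, 0.0444% higher. Tnf, which encodes tumour necrosis factor, had 12.0 ± 11.0 CPM in Efemp1ki/ki eyecups, against 2.68 ± 1.20 CPM in wild-type eyecups (SD, n = 7 and 8). Its log2 difference was 2.16 (adjusted p = 0.0145, edgeR), and its groups overlapped at 3.35 to 34.3 CPM against 1.39 to 5.33 CPM. Tnf passed in 6 of the 9 alternatives run for it, with log2 differences of 1.48 to 2.16.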

How the data were processed

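The library kit was TruSeq Stranded mRNA, per the labels' protocols, and GRCm38.p4 is the build that the submitters' processing notes name. Neither the aligner nor the counting tool and its strand setting is given in the sources used here. Estimated counts, as deposited by the authors, were rounded to whole numbers. The deposited TPM table gives protein-coding genes alone the TPM total in each library, so that its values were handled as a score, for levels and in 1 alternative. In each file 1 column matched no label and was not used.

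The 6 eyecup groups, 45 libraries in all, came from the sample titles. Totals of 14236127 to 35297627 counts set the counting precision, and floors cover counting error only. Genes were kept by filterByExpr (18003 genes), scaled by the trimmed mean of M values and fitted with edgeR 4.0.16 (robust quasi-likelihood F test, R 4.3.3), with calls at a Benjamini-Hochberg adjusted p under 0.05 over all genes. Standard errors were derived from the F statistic. Levels are CPM. A library stood apart beyond 3 scaled median absolute deviations. Relations were tested with 100000 2-sided permutations within groups, on levels centred on their group means. The fit was tested on simulated data with the same relative spread between libraries for every gene. That test does not cover genes as uneven as Muc5b and Reg3g.

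The 10 genes, the marker and pathway lists and the tests were chosen with earlier results of these data known. Apart from the 10 genes, the text names called genes of 9 pathway lists and the 2 genes of each list with the smallest p. It also names the 2 genes most like each of the 10, ranked with the genes of the set left out. Duox1, Duoxa1 and the goblet gene values by library were chosen after values were seen. Same-numbered libraries did not pair: of 19 pairs across genotypes, 6 had deviations correlated above 0.1. No 2 libraries of a group were copies. Alternatives were DESeq2 1.42.0, limma 3.58.1 on log2(TPM + 1), other size factors, no filter, only the groups compared, a replicate block, a surface marker covariate, a GC offset with a spline of 5 degrees of freedom, and leaving out libraries.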

Additional observations from a re-analysis of the deposited data

Results flagged for a closer look

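In 60 combinations of gene and eyecup group, 4 libraries lay farther from their group than Dixon's 95% limit allows. Chance gives about 1 in 20, and the count of 4 is near that rate. Efemp1ki/ki library 7 at 9 months had 18.7 CPM of Kprp, with 3.38 CPM in the next library of its group, and 87.6 CPM of Muc5b, with 7.12 CPM in the next. The same library had a mean log2 CPM of 3.63 over 6 rod photoreceptor markers, against a median of 9.11 in its group. Efemp1ki/ki library 2 at 17 months had 5.92 CPM of Duox2, with 3.96 CPM in the next library. Wild-type library 9 at 3 months had 4035 CPM of Muc4, with 3091 CPM in the next.

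Outside the eyecup, Muc4 was present in all 48 neural retina libraries, at a median of 8.29 CPM and a range of 2.79 to 62.5 CPM. Muc5b was present in all 48 as well, at a median of 0.625 CPM, and with 3 to 39 counts per library.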

How the results depend on the processing

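The falls of Duox2 and Duoxa2 with age passed in all alternatives run, leave-one-out fits included. With only the groups compared, genes called were 101 at 3 months between genotypes (553 otherwise), 0 at 9 months (1), 0 at 17 months (11; 0 of the 10 genes in place of 2) and 304 for age in Efemp1ki/ki (643); 6 of the 10 genes passed for age in wild type (3). With the replicate block the counts were 160 at 3 months, 1 at 17 months (1 of the 10) and 398 for age in wild type (1059), and 2 of the 10 passed at 9 against 3 months in the mean of both genotypes (4). With DESeq2 they were 976, 0 and 52 between genotypes at 3, 9 and 17 months, 1257 in the mean of ages (807), 1726 for age in wild type and 1017 in Efemp1ki/ki; 4 of the 10 passed at 17 months and 5 for age in wild type. With limma on log2(TPM + 1) they were 10, 0 and 0, then 34 in the mean of ages, 2002 for age in wild type and 929 at 9 against 3 months (2288); 0 of the 10 passed at 17 months or in the mean of ages (4), 6 for age in wild type and 2 at 9 against 3 months. With the surface covariate they were 1536 at 3 months, 1474 in the mean of ages and 488 for age in wild type; 1 of the 10 passed at 17 months and 7 for age in Efemp1ki/ki (4). With the GC offset they were 55 at 3 months, 2 at 17 months, 251 in the mean of ages, 2044 for age in wild type and 783 at 9 against 3 months; 0 of the 10 passed at 17 months, 0 in the mean of ages and 6 for age in wild type. With that offset 19 of the 55 called genes at 3 months were higher (84 of 553 without it), 591 of 2044 for age in wild type (491 of 1059) and 363 of 804 in Efemp1ki/ki (469 of 643). Without a filter 5 genes passed at 17 months. Without the library that stood apart 18 passed at 17 months and 0 at 9 months, and 6 of the 10 for age in wild type. Leaving out single libraries gave 0 to 3 of the 10 at 17 months, 2 to 7 for age in wild type (7 without wild-type library 6 at 17 months), 4 to 5 in Efemp1ki/ki and 4 to 7 in the mean of both genotypes.

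Signs turned only for differences that had not passed, except for Muc4, Klf5, Grhl1, Grhl2, Grhl3 and Il17rc. With the surface covariate, age in wild type gave 0.046 for Smpdl3b, 0.030 for Muc4 and 0.000282 for Grhl3, and age in Efemp1ki/ki 0.026 for Kprp and 0.094 for Ovol1. At 17 against 3 months in the mean of both genotypes it gave 0.38 for Klk10, 0.29 for Klk13, 0.024 for Ovol1, 0.22 for Smpdl3b, 0.00816 for Muc4, 0.034 for Klf5, 0.053 for Grhl1, 0.000278 for Grhl2 and 0.017 for Il17rc. At 9 months Kprp was -0.00456 with TPM and -0.20 without the library that stood apart. Leaving out single libraries moved the Klk13 difference at 17 against 3 months in that mean between -0.61, without Efemp1ki/ki library 2 at 17 months, and 0.14, without wild-type library 5 at 3 months. The cause of these moves was not tested. Low counts limit Reg3g at 3 months, with 0 to 8 counts per library. They also limit Klk13, with 5 to 106 counts in Efemp1ki/ki and 1 to 10 in wild-type eyecups at 17 months.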
